A study of Mus musculus with 8 samples.

Results

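The medial ganglionic eminence is a zone of the embryonic ventral telencephalon, and the transcription factors that act in it and in the interneurons it gives rise to are described here in interneurons of the juvenile mouse cortex. The 8 genes are *Nkx2-1*, *Lhx6*, *Sox6*, *Satb1*, *Dlx1*, *Dlx2*, *Dlx5* and *Dlx6*. They were taken by gene name from a count table of single cells, and all 8 of 8 were present among its 23335 gene names. In the ventral telencephalon, *Dlx* homeobox genes are needed for interneuron progenitors to differentiate and migrate, and *Nkx2-1* gives medial identity. *Lhx6* is a direct target of Nkx2-1, and *Sox6* and *Satb1* act after *Lhx6* as the cells migrate, settle and mature. Which of these genes still yield transcripts in the cortex at postnatal days 29 to 35 is the question put to the counts.

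Chandelier cells (ChC) and parvalbumin (Pv) cells, interneurons that both arise largely from this zone, were picked by hand from dissociated frontal cortex as single red fluorescent cells. ChC came from Nkx2.1-CreER; Ai14 mice in which tamoxifen late in embryonic life switched on the red reporter, so that the reporter marks cells that had driver activity then, whatever their *Nkx2-1* level at collection. Pv cells came from Pv-ires-Cre; Ai14 mice, in which every cell with past or present activity of the *Pv* driver can carry the reporter. The labels of the Pv samples repeat the tamoxifen text of the ChC line. All 4 mice are labelled female, and the title of every sample names WT mice. ChC batches 1 and 2 came from animal 1 at postnatal day 31, ChC batches 3 and 4 from animal 2 at day 32, Pv batches 5 and 6 from animal 3 at day 29 and Pv batches 7 and 8 from animal 4 at day 35. Cell type, mouse line and flow cell cannot be told apart in this design, and neither can age, animal and lane of the flow cell.

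Each library batch held 16 cells, and all but 2 of the 128 cells had counts, which leaves 63 ChC and 63 Pv cells. Counts are unique molecular tags (UMI), 1 for each RNA molecule primed at its poly(A) tail. Depth was 448121, 556405, 2460679 and 1123083 UMI in ChC batches 1 to 4, and 392580, 430860, 316540 and 797177 UMI in Pv batches 5 to 8. Levels are given as CPM, the UMI of a gene summed over the cells of a batch per 1000000 UMI of that batch. Because a tag stands for a molecule, levels were not divided by gene length. At these depths a batch without a UMI of a gene allows it up to between 1.22 CPM (batch 3) and 9.48 CPM (batch 7), taking 3 counts as the limit.

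How tags were assigned to genes bears on the *Dlx* genes. In the table, 49 pairs consist of a gene with at least 100 UMI inside a gene of the opposite strand with which it shares no annotated exon, and in 48 of these 49 pairs no cell had more tags on the inner than on the outer gene. The same held for 46 of 46 such pairs on one strand. Read from these pairs, the count of a gene takes in tags from anywhere in its span, introns and the opposite strand included. *Nkx2-1*, *Lhx6*, *Sox6*, *Satb1*, *Dlx2* and *Dlx5* overlap no other counted gene, while *Dlx1* and *Dlx6* do.

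The labels of the cells were set against marker genes. The interneuron genes *Gad1* and *Slc32a1* had a UMI in 62 and 63 of 63 ChC and in 63 of 63 Pv cells each. *Gad2* was found in 61 ChC and 56 Pv cells. *Pvalb*, which encodes parvalbumin, was at 147, 196, 108 and 86.4 CPM in the ChC batches and at 1643, 764, 669.7 and 1217 CPM in the Pv batches, which did not overlap. Over the 9681 genes tested between the cell types, 2.05% had every Pv batch above every ChC batch. The neuronal genes *Snap25* and *Syt1* were found in 62 ChC and 63 Pv cells and *Rbfox3* in 56 and 59.

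Genes listed as markers of cells that should not be in the tubes were taken as the background. Whether the picked cells transcribe some of them themselves, such as *Nr2f1* in Pv cells, was not tested. Of 42 such genes, 16 had no UMI, and the median marker had a UMI in 4.37% of these cells. Among pyramidal cell genes, 8 of 11 were at 0, including *Neurod6*, *Tbr1*, *Emx1* and *Fezf2*. The most abundant, *Slc17a7*, was in 39.7% of cells, and the 11 together summed to 11.2, 53.9, 5.28 and 100.6 CPM in the ChC batches and 12.7, 2.32, 392 and 31.4 CPM in the Pv batches. Of the caudal eminence interneuron genes, *Vip*, *Sp8* and *Nr2f2* were at 0, *Adarb2*, the most abundant, reached 1687 CPM in batch 4 and at most 148 CPM elsewhere, and *Nr2f1* was in 41 of 63 Pv cells. The 7 caudal genes summed to 22.3, 57.5, 28.9 and 1708 CPM in the ChC batches and 66.2, 41.8, 392 and 46.4 CPM in the Pv batches.

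Glial and progenitor genes were uneven over the batches as well. The 9 progenitor and immature cell genes summed to 156, 266, 62.6 and 272 CPM in ChC and 35.7, 4.64, 1103 and 191 CPM in Pv batches. *Sox2* was their most abundant gene, *Nes* was at 0, and *Dcx*, a gene of migrating neurons, was in 41 of 63 ChC cells. The 5 astrocyte genes summed to 17.9, 128, 73.6 and 281 CPM in ChC and 12.7, 4.64, 291 and 113 CPM in Pv batches, with *Gfap* at 0 and *Slc1a3* the most abundant. The 5 oligodendrocyte genes, led by *Mbp* and with *Mobp* at 0, lay between 2.32 CPM (batch 6) and 151 CPM (batch 2). The 5 microglial and vessel genes, led by *Flt1* and with *C1qa* and *Cldn5* at 0, lay between 1.63 CPM (batch 3) and 42.7 CPM (batch 4). Batches 4 and 7 were thus the highest in several of these lists, and the part of such RNA in the levels of the developmental factors was not tested.

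The widest spread marker of another type, *Slc1a3* of astrocytes, had a UMI in 64.3% of all cells, 71.4% of ChC and 57.1% of Pv cells. In Pv cells *Nr2f1* was higher still, at 65.1%. Median depth was 33244 UMI for a ChC cell and 23248 UMI for a Pv cell. A share of cells at or below that of the widest spread marker was read as background and not as expression in that share of cells.

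Of the 8 factors, 5 had a UMI in more than 50% of all cells, where 21.6% of all 23335 gene names did. They were *Sox6*, in 115 cells, *Lhx6* in 102, *Dlx1* in 101, *Nkx2-1* in 96 and *Satb1* in 81. *Dlx2*, in 47 cells, *Dlx5*, in 33, and *Dlx6*, in 29, fell short. With every cell thinned to 10000 UMI, which leaves 48 ChC and 55 Pv cells, the expected shares were 78.1% for *Sox6*, 67.3% for *Lhx6*, 66.1% for *Dlx1*, 52.3% for *Satb1* and 45.04% for *Nkx2-1*, beside 46.9% for *Slc1a3*. *Sox6*, *Lhx6*, *Dlx1* and *Satb1* were then above every marker of another type, and *Nkx2-1* was not. Before thinning, *Nkx2-1* was above every marker of another type as well, at 76.2% of all cells. The shares of *Satb1* and *Slc1a3* were then equal, at 64.3%. *Dlx2*, *Dlx5* and *Dlx6*, at 14.5%, 12.1% and 15.8% after thinning, lay below *Slc1a3* in both readings over all cells, though not in every batch. In batch 3, *Dlx6* was in 15 of 16 cells and *Slc1a3* in 14. *Slc1a3* itself was uneven, in 1 of 15 cells of batch 6 and in 15 of 16 of batch 8.

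**Figure D1:**
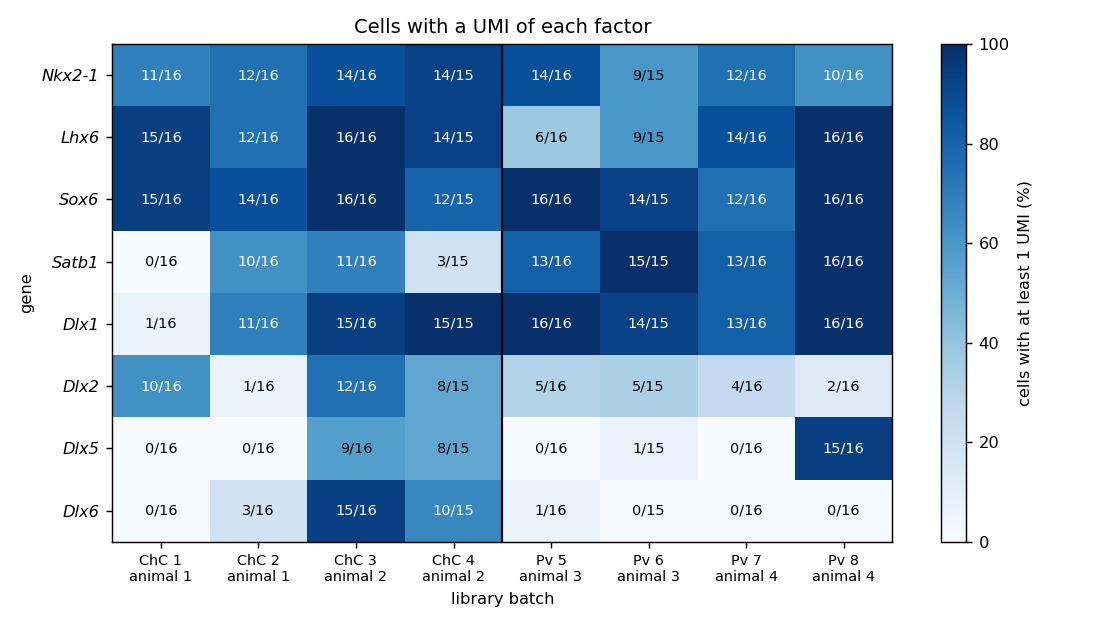
Cells with at least 1 UMI of each developmental factor (rows) in each library batch (columns, with the animal), colored by the percent of cells and labelled with cells with a UMI over cells in the batch. *Sox6* reached 75% of cells or more in each batch, while *Dlx5* went from 0 of 16 cells in batch 7 to 15 of 16 in batch 8.

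*Nkx2-1* encodes a homeodomain protein that sets medial identity in the ventral telencephalon, and it lies on the minus strand at chr12:57632924-57636093 of mm9. It stood at 58.02, 73.7, 64.6 and 78.4 CPM in ChC batches 1 to 4, and at 81.5, 30.2, 69.5 and 23.8 CPM in Pv batches 5 to 8. The ChC batches lay close together, at 68.7 ± 9.11 CPM (SD, n = 4), and inside the range of the Pv batches, at 51.3 ± 28.5 CPM (SD, n = 4). These levels rest on 26, 41, 159 and 88 UMI in ChC and on 32, 13, 22 and 19 UMI in Pv batches.

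In cells, *Nkx2-1* had a UMI in 51 of 63 ChC (81.0%, exact Clopper-Pearson interval 69.1 to 89.8%) and in 45 of 63 Pv cells (71.4%, 58.7 to 82.1%). All such intervals are at the 95% level and cover counting error only. Before thinning, both shares of *Nkx2-1* were above every marker of another type. The highest were *Slc1a3* at 71.4% in ChC and *Nr2f1* at 65.1% in Pv cells. Thinned to 10000 UMI, the expected shares of *Nkx2-1* were 50.2% in ChC and 40.6% in Pv cells. These were below the 52.9% of *Slc1a3* in ChC and the 46.01% of *Sox2* in Pv cells. By mean CPM over the 8 batches, *Nkx2-1* was the lowest of the 5 genes found in most cells. In ChC alone *Satb1* was lower, at 32.1 CPM. *Nkx2-1* was the only member besides *Sox6* and *Lhx6* with UMI in at least 6 cells of every batch. In log2, ChC exceeded Pv by 0.59 (standard error 1.13, adjusted p = 0.989 by the quasi-likelihood test of edgeR over animals, with Benjamini-Hochberg adjustment). Without animal 4 it was 0.21, and without animal 3 it was 1.07. Fits that leave out an animal, here and for the other genes, have a single animal on 1 side and take their spread from the other side. The difference between the cell types was within the spread of the Pv batches.

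*Lhx6* encodes a LIM-homeodomain protein and is required for interneurons of the medial eminence to migrate and to acquire their types. It lies on the minus strand at chr2:35937473-35959580. *Lhx6* was at 469, 91.7, 282 and 192 CPM in the ChC batches and at 25.5, 48.7, 205 and 157 CPM in the Pv batches. ChC stood at 259 ± 160 CPM (SD, n = 4) and Pv at 109 ± 86.0 CPM (SD, n = 4), and the groups overlapped, since Pv batches 7 and 8 lay above ChC batch 2. Both batches of animal 3 were low, at 37.6 CPM over the animal, against 171 CPM in animal 4, the other Pv animal, and 259.8 and 254 CPM in the ChC animals.

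A *Lhx6* UMI was found in 57 of 63 ChC (90.5%, 80.4 to 96.4%) and in 45 of 63 Pv cells (71.4%, 58.7 to 82.1%). Among ChC cells of at least 10000 UMI, 48 of 48 had one. After thinning, the expected shares were 85.2% of ChC and 51.7% of Pv cells, so the order of the cell types was that of the CPM. In batch 5, 6 of 16 cells had a *Lhx6* UMI (37.5%, 15.2 to 64.6%), the lowest share for this gene, while 16 of 16 did in batches 3 and 8. ChC stood above Pv by a log2 of 1.42 (standard error 0.88, adjusted p = 0.894 from edgeR over animals), the largest such value among the members tested. Leaving out 1 animal moved it between 0.78 (without animal 3) and 2.67 (without animal 4).

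*Sox6* encodes an HMG-box protein that acts in postmitotic interneurons of the medial eminence and is needed for their positioning and maturation. Its gene is long, chr7:122614858-123182258 on the minus strand. *Sox6* was at 143, 313, 458 and 32.1 CPM in the ChC batches and at 504, 109, 126.4 and 188 CPM in the Pv batches. The groups overlapped over nearly their whole ranges, with means of 237 ± 188 CPM (SD, n = 4) in ChC and 232 ± 185 CPM (SD, n = 4) in Pv. Without batch 5 the Pv mean was 141 CPM. Batches of 1 animal differed widely: batches 3 and 4 of animal 2 held 458 and 32.1 CPM, and batches 5 and 6 of animal 3 held 504 and 109 CPM.

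*Sox6* was the most widely found of the 8 genes. It had a UMI in 57 of 63 ChC (90.5%, 80.4 to 96.4%) and 58 of 63 Pv cells (92.1%, 82.4 to 97.4%), and in 73.3% and 82.3% of cells after thinning. In batch 4, its lowest batch by CPM, 12 of 15 cells still held one (80.0%, 51.9 to 95.7%). ChC over Pv gave a log2 of 0.27 (standard error 0.70, adjusted p = 0.997 from edgeR over animals). Without batch 3, the deepest of the 8, it was -0.74, and without animal 4 it was -0.18.

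*Satb1* encodes a chromatin-organizing homeodomain protein that acts after *Lhx6* in the maturation of interneurons of the medial eminence. It lies on the minus strand at chr17:51875512-51971972. *Satb1* was at 0, 111, 14.2 and 2.67 CPM in the ChC batches and at 119.7, 875, 136 and 212 CPM in the Pv batches. Every Pv batch thus lay above every ChC batch, although by little between Pv batch 5 and ChC batch 2. Of the 7 members in the test, 1 had its Pv batches apart above ChC and 0 had their ChC batches apart above Pv. Over all 9681 genes tested, 2.05% were apart with Pv above and 2.21% with ChC above.

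The means of *Satb1* were 32.1 ± 53.3 CPM (SD, n = 4) in ChC and 336 ± 362 CPM (SD, n = 4) in Pv. Each rests largely on 1 batch, as they were 5.63 CPM in ChC without batch 2 and 155.9 CPM in Pv without batch 6. Its log2 fold change was -3.28 (standard error 1.10, adjusted p = 0.649 from edgeR over 2 animals against 2), so that it did not pass the threshold of 0.05. Its unadjusted p in this test was 0.0161. Over the other settings of the test, its adjusted p lay between 0.0536 and 0.9999, and its fold change between -5.12 and -2.18. Both ends of the p range come from fits with a single Pv animal, in which the spread is that of the ChC animals, and with 2 animals on each side the lowest adjusted p was 0.0862, from DESeq2. Animals held 61.7 and 10.6 CPM in ChC and 515 and 190.4 CPM in Pv.

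By cells, *Satb1* had a UMI in 24 of 63 ChC (38.1%, 26.1 to 51.2%) and in 57 of 63 Pv cells (90.5%, 80.4 to 96.4%). The ChC share was below that of the astrocyte gene *Slc1a3* in the same cells (71.4%), whereas the Pv share was above it (57.1%). After thinning, the expected shares were 17.7% and 82.5%. In batch 1, 0 of 16 cells had a UMI (upper limit 20.6%), and the batch allows up to 6.69 CPM. Batch 2, from the same animal, had 62 UMI in 10 of its 16 cells.

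*Dlx1* and *Dlx2* are neighbors on chromosome 2, transcribed toward each other, and they encode homeodomain proteins that act with overlapping roles in interneuron differentiation and migration. *Dlx1* lies on the plus strand at chr2:71367502-71372037, and *Dlx2* on the minus strand at chr2:71381465-71384811. *Dlx1* was at 2.23, 111, 188 and 150.5 CPM in the ChC batches and at 129.9, 83.6, 133 and 79.0 CPM in the Pv batches. Apart from batch 1, with a single UMI among 16 cells, the batches lay within 79.0 to 188 CPM, and the cell types overlapped. The means were 113 ± 80.1 CPM (SD, n = 4) in ChC and 106 ± 29.0 CPM (SD, n = 4) in Pv.

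*Dlx1* had a UMI in 42 of 63 ChC (66.7%, 53.7 to 78.0%) and in 59 of 63 Pv cells (93.7%, 84.5 to 98.2%). The ChC share was below the 71.4% of *Slc1a3* in these cells, and so not above background before thinning, while the Pv share was above every marker. In batch 1, 1 of 16 cells had one (6.25%, 0.158 to 30.2%). In Pv cells of at least 10000 UMI, 55 of 55 had one. Thinned, the expected shares were 62.03% of ChC and 69.6% of Pv cells, both above every marker of another type. For *Dlx1*, log2 of ChC over Pv came to 0.27 (standard error 0.97, adjusted p = 0.999 from edgeR over animals), and it was -0.58 without animal 2.

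The antisense RNA *Dlx1as* (chr2:71368695-71375948, minus strand) shares 3343 bases of its span with *Dlx1*. The UMI of both were equal in 118 cells, *Dlx1* was higher by at most 2 UMI in 8, and *Dlx1as* was higher in 0. Their totals were 886 and 875 UMI. Transcripts of *Dlx1* and of its antisense partner cannot be told apart in these counts, and the values given for *Dlx1* hold for the pair.

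*Dlx2* was far lower, at 53.6, 1.80, 23.98 and 21.4 CPM in the ChC batches and at 15.3, 27.9, 12.6 and 2.51 CPM in the Pv batches. The values overlapped, with means of 25.2 ± 21.4 CPM (SD, n = 4) in ChC and 14.6 ± 10.4 CPM (SD, n = 4) in Pv, and the log2 fold change was 0.80 (standard error 1.46, adjusted p = 0.989 from edgeR over animals). The ChC mean was 15.7 CPM without batch 1. Without animal 4 the log2 fold change was 0.04, and without animal 3 it was 2.33. The levels rest on 108 UMI in all ChC and 24 UMI in all Pv cells. Batch 1, with the lowest *Dlx1*, had the highest *Dlx2*, while batch 2, from the same animal, had the lowest *Dlx2* and *Dlx1* at 111 CPM. Found in 31 of 63 ChC (49.2%, 36.4 to 62.1%) and 16 of 63 Pv cells (25.4%, 15.3 to 37.9%), *Dlx2* was at 18.9% and 10.7% after thinning, below *Slc1a3* in each cell type.

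*Dlx5* and *Dlx6* form another such pair, on chromosome 6, and act downstream of *Dlx1* and *Dlx2*. *Dlx5* lies on the minus strand at chr6:6827805-6832068 and *Dlx6* on the plus strand at chr6:6813334-6817970. *Dlx5* was at 0, 0, 11.4 and 9.79 CPM in the ChC batches and at 0, 2.32, 0 and 79.0 CPM in the Pv batches. A single Pv batch, 8, held 63 of the 64 UMI in Pv cells, in 15 of its 16 cells, and batch 7 of the same animal held 0 in 16 cells. In ChC, animal 1 had 0 UMI in 32 cells and animal 2 had 39 UMI in 17 of 31 cells. Means were 5.29 ± 6.15 CPM (SD, n = 4) in ChC and 20.3 ± 39.1 CPM (SD, n = 4) in Pv. Without batch 3 the ChC mean was 3.26 CPM, and without batch 8 the Pv mean was 0.774 CPM.

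The log2 fold change of *Dlx5* was -2.22 (standard error 2.04, adjusted p = 0.974 from edgeR over animals), and without animal 4 it was 2.04. Its sign thus depended on the animal of batch 8. Over all cells *Dlx5* had a UMI in 17 of 63 ChC (26.98%, 16.6 to 39.7%) and 16 of 63 Pv cells (25.4%, 15.3 to 37.9%), and in 6.58% and 16.96% after thinning. The 4 batches at 0 allow up to between 5.39 CPM (batch 2) and 9.48 CPM (batch 7), near the level seen in batches 3 and 4.

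*Dlx6* was at 0, 5.39, 135 and 34.7 CPM in the ChC batches and at 2.55, 0, 0 and 0 CPM in the Pv batches. ChC animal 2 held 371 of the 375 UMI, and all Pv cells held 1. *Dlx6* had a UMI in 28 of 63 ChC (44.4%, 31.9 to 57.5%) and 1 of 63 Pv cells (1.59%, 0.0402 to 8.53%), and 32.8% and 0.896% of cells were expected to have one after thinning. ChC batch 1, with 0 UMI and a limit of 6.69 CPM, overlapped the Pv batches.

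Because *Dlx6* did not pass the filter on low counts, it was not in the edgeR test. Without that filter its log2 fold change was 6.44 (standard error 2.30, adjusted p = 0.224 from edgeR over animals). It passed the filter without animal 1 (7.35) and without animal 4 (5.27), and not without animal 2. Without animal 3 it passed as well, but Pv then held 0 UMI and no size of the difference can be given. Its adjusted p lay between 0.224 and 0.594 over the edgeR settings in which it was tested. The pooled ratio of ChC over Pv was 158, with an exact counting interval of 28.2 to 6253 that takes no account of the spread between animals. Without batch 3, which held 332 UMI, the ratio was 38.2 (6.50 to 1546). In the ChC animals *Dlx6* was at 2.99 and 103.5 CPM and in the Pv animals at 1.21 and 0 CPM. The Pv animals and ChC animal 1 thus differed by a few UMI.

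*Dlx6* lies wholly inside the span of the long antisense RNA *Dlx6as1* (chr6:6770546-6819533, minus strand), with which it shares no annotated exon, and a shorter antisense RNA, *Dlx6as2* (chr6:6813797-6815150, minus strand), lies inside *Dlx6*. In 0 cells was *Dlx6* above *Dlx6as1* or *Dlx6as2* above *Dlx6*. Tags of *Dlx6* were therefore also counted for *Dlx6as1*, and transcripts of the 3 genes cannot be told apart within the span of *Dlx6*. Of the tags of *Dlx6as1*, 0 of 164, 3 of 28, 332 of 735 and 39 of 301 fell on *Dlx6* in the ChC batches, and 1 of 17, 0 of 39, 0 of 8 and 0 of 81 in the Pv batches. The share was 45.2% (exact interval 41.5 to 48.8%) in batch 3 and 12.96% (9.38 to 17.3%) in batch 4, while in batch 1 it was 0% (upper limit 2.22%).

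Outside *Dlx6*, the tags of *Dlx6as1* came to 366, 44.9, 164 and 233 CPM in the ChC batches and to 40.8, 90.5, 25.3 and 102 CPM in the Pv batches. Tags from this span outside *Dlx6* were thus found in every batch, and the whole span had tags in 51 of 63 ChC and 45 of 63 Pv cells. Tags within the span of *Dlx6as2*, which count for *Dlx6* too, were seen in batch 3 alone, 161 UMI in 13 of 16 cells, and which of the overlapping genes they came from cannot be told. The remaining *Dlx* genes of the table, *Dlx3* and *Dlx4*, had 0 UMI.

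**Figure D2:**
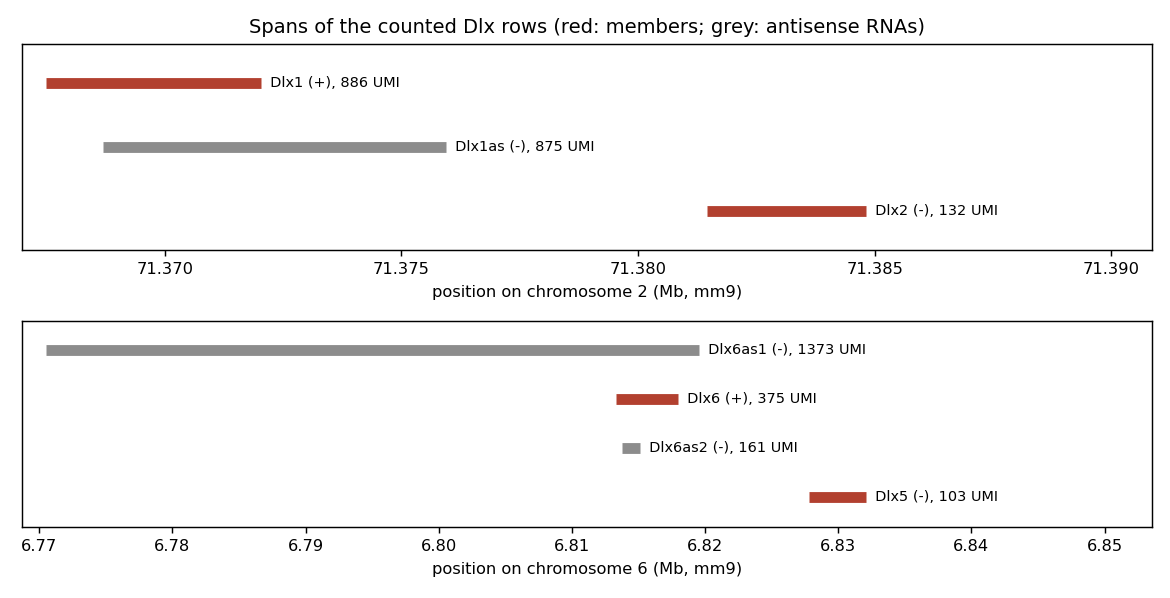
Spans of the counted *Dlx* genes on chromosomes 2 and 6 (position in Mb, mm9), with members in red, antisense RNAs in grey, the strand in parentheses and the UMI over all cells. *Dlx1as* (875 UMI) overlaps *Dlx1* (886 UMI), and *Dlx6* (375 UMI) lies inside *Dlx6as1* (1373 UMI).

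The 4 *Dlx* members share the homeobox, the stretch of 180 coding bases that encodes the DNA-binding homeodomain, which raises the question of tags shared between copies. The homeobox of each is shown, with the bases that are not the same in all 4 genes in capitals. In each gene an intron divides it into 132 and 48 bases. It lies at chr2:71369082-71369213 and chr2:71370321-71370368 (plus strand) in *Dlx1*, and at chr2:71383441-71383572 and chr2:71382934-71382981 (minus strand) in *Dlx2*. It lies at chr6:6829526-6829657 and chr6:6828441-6828488 (minus strand) in *Dlx5*, and at chr6:6815140-6815271 and chr6:6817041-6817088 (plus strand) in *Dlx6*.
Dlx1: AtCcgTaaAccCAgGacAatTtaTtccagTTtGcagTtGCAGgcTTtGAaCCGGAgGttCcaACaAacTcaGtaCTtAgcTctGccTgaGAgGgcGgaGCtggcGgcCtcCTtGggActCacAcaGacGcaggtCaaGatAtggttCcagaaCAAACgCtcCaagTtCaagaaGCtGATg
Dlx2: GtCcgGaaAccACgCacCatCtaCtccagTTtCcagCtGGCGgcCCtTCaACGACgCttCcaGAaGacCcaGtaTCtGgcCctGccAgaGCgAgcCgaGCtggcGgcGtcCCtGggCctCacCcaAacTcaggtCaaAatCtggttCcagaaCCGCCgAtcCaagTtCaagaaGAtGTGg
Dlx5: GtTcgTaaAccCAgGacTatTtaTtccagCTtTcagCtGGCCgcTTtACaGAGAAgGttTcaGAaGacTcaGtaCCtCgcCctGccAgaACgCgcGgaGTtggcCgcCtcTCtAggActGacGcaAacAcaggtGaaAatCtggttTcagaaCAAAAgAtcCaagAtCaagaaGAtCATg
Dlx6: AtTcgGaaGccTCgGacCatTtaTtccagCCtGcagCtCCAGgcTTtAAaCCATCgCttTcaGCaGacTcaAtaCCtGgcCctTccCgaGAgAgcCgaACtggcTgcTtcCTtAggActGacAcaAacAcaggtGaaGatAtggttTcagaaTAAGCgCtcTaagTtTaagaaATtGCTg

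The sequences were read from the GENCODE annotation of this build and matched to the genome at those positions. All 4 had the same base at 106 of 180 positions, and 51 of the 74 differing positions were the third base of a codon. Between 71.1% (*Dlx2* and *Dlx6*) and 76.7% (*Dlx1* and *Dlx6*) of bases were identical in a pair. The longest run that a pair shared was 15 bases within the homeobox (*Dlx1* and *Dlx2*) and 23 bases over whole transcripts (*Dlx2* and *Dlx6*).

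Ordered by their mean CPM over the 8 batches, the members stood at 234 for *Sox6*, 184 for *Lhx6*, 184 for *Satb1*, 109.6 for *Dlx1*, 59.96 for *Nkx2-1*, 22.2 for *Dlx6*, 19.9 for *Dlx2* and 12.8 for *Dlx5*. These are levels in tags, and the spans from which tags were drawn differ in length. The means of *Dlx6* and *Dlx5* rest largely on single batches, batch 3 at 135 CPM of *Dlx6* and batch 8 at 79.0 CPM of *Dlx5*. The order pools cell types that differ: *Satb1*, at 32.1 CPM, was below *Nkx2-1* in ChC, and at 336 CPM it was the highest member in Pv. That rank rests on batch 6, without which its Pv mean was 155.9 CPM, below the 273 CPM of *Sox6*. The order pooled over the 8 batches also depends on the handling of transcript rows, as *Satb1* came before *Sox6* in it when all rows of a name were summed. Neighbors in the order did not differ beyond their spread. *Sox6* was above *Lhx6* in 5 of 8 batches, by 50.3 ± 248 CPM (SD, n = 8), *Lhx6* above *Satb1* in 4 of 8, and *Satb1* above *Dlx1* in 3 of 8. The difference nearest to its spread was that of *Dlx1* and *Nkx2-1*, at 49.7 ± 49.8 CPM (SD, n = 8), with *Dlx1* higher in 7 of 8 batches. *Nkx2-1* was above *Dlx6* in 7 of 8, by 37.8 ± 47.8 CPM (SD, n = 8). *Dlx6* was above *Dlx2* in 3 of 8, and *Dlx2* above *Dlx5* in 7 of 8, by 7.06 ± 37.2 CPM (SD, n = 8).

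**Figure D3:**
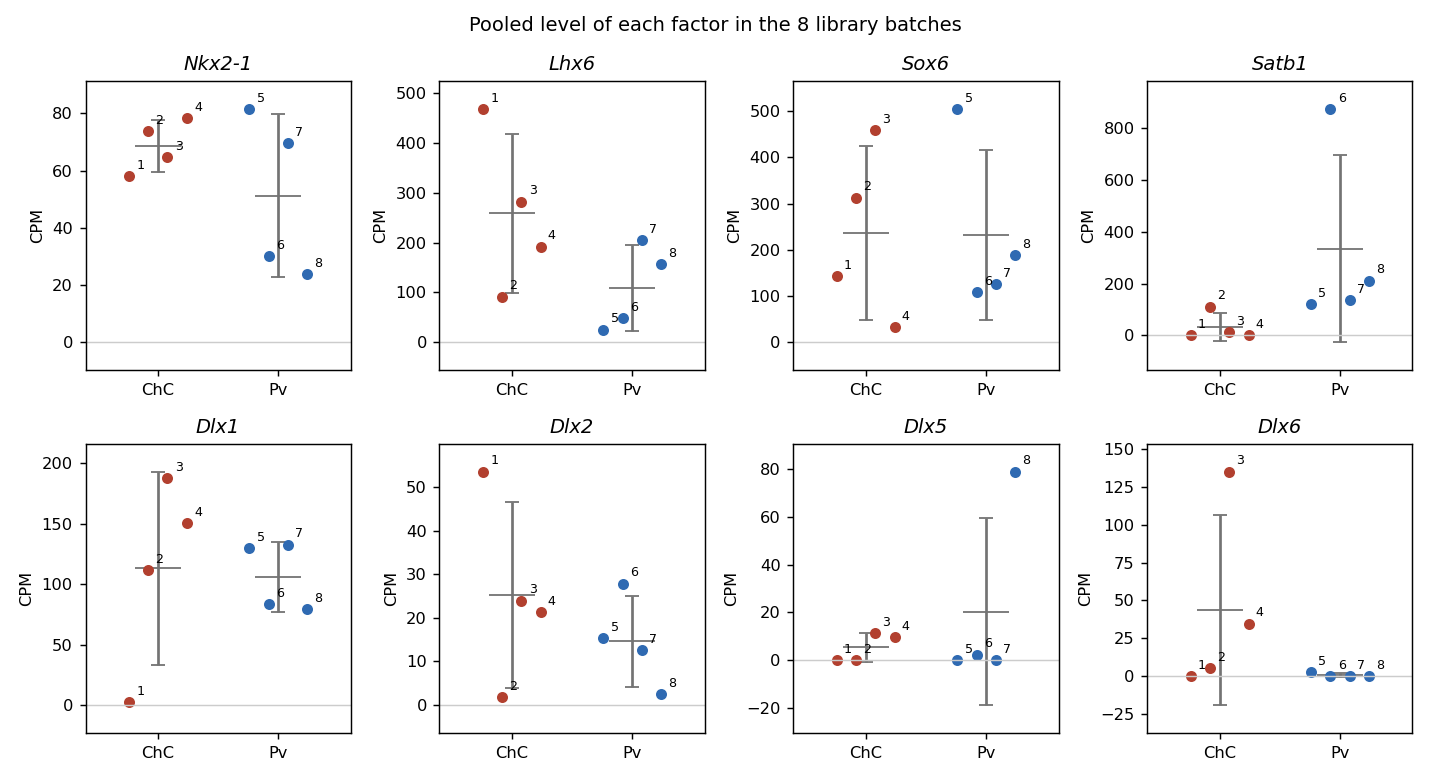
CPM of each developmental factor (pooled UMI of the gene per 1000000 UMI of the batch, linear axes) in the 4 ChC (red) and 4 Pv (blue) library batches, numbered 1 to 8, with the mean (grey line) and SD (bars) of each cell type. The *Satb1* batches of Pv, from 119.7 to 875 CPM, all lie above those of ChC, and the other 7 genes overlap.

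In the comparison of ChC with Pv over animals, edgeR called 0 of the 7 members tested, where it called 0 of 9681 genes (0%). At an unadjusted p under 0.05 there were 618 genes, 1 of them a member, *Satb1*. DESeq2 on the same sums called 153 genes (1.58%), and 0 of the 7 members. The median log2 fold change was 0.27 over the 7 members and 0.05 over all genes tested. A p over the threshold with 2 animals against 2 does not show that levels were alike.

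The batches of 1 animal differed widely for several members. Of the 8 members, 3 (*Satb1*, *Dlx5* and *Dlx6*) were found in 0 cells of some batch and in 75% or more of another batch's cells. Among the 8732 genes with at least 100 UMI, 37.2% did the same, so that this on and off pattern over batches was no rarer over all genes. The largest gap between both batches of an animal was 93.75 percentage points of cells for *Dlx5*, 62.5 for *Satb1* and for *Dlx1*, and 22.5 for *Lhx6*, with a median of 56.25 over the 7992 genes whose totals lie between those of the members.

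Within a batch, by contrast, tags of a member with at least 100 UMI there spread over the cells about as the cell totals did. *Dlx2*, *Dlx5* and batch 7 had no such case, and *Nkx2-1* and *Dlx6* had theirs in batch 3 alone. Given those totals, the chi-square per degree of freedom lay between 0.662 and 1.31 in the 14 cases where a member had at least 100 UMI in a batch, and 1 is the value of counting error alone. Its median over all 15192 such cases of any gene was 1.04. *Lhx6* in batch 3, for instance, had up to 141 UMI in a cell and a value of 0.936. These values describe the spread, and whether single cells of a batch differ in these genes was not tested.

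UMI of several members were counted in the same cells. Over both cell types, 94 cells had UMI of both *Lhx6* and *Sox6* and 75 of *Nkx2-1*, *Lhx6* and *Sox6*. Since each of the 3 was found in most cells by itself, these numbers do not by themselves show an association. The median cell had UMI of 5 of the 8 members in ChC and in Pv, and the expected medians after thinning were 3.48 and 3.66. All 8 were found in 7 cells, all of batch 3, and none in 2 cells, which held at most 1010 UMI. *Nkx2-1* without *Lhx6* was seen in 3 ChC and 14 Pv cells, 8 of the latter in batch 5.

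Correlations between members over the cells of a batch were weak. Over the 28 pairs, the mean within-batch Spearman correlation of UMI per cell total lay between -0.165 (*Nkx2-1* and *Lhx6*) and 0.110 (*Nkx2-1* and *Sox6*). The same measure over the 9307 genes found in at least 25% of the cells gave the genes most like each member, for members with a UMI in at least 30 cells. A batch in which a gene did not vary entered the mean over the 8 batches as 0, which pulls toward 0 the values of *Satb1*, *Dlx5* and *Dlx6*. These are descriptions over the 15 or 16 cells of each batch, which share a library and differ in depth. The highest of 9307 values would lie above 0 without any relation, and no value for unrelated genes was computed. The genes named next are thus not shown to be related to the members.

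*Nkx2-1* came closest to *Pigr*, *Lrrc7* and *C230081A13Rik* (0.392, 0.382 and 0.353) and *Lhx6* to *Ybx1*, *Higd1a* and *Phyhipl* (0.386, 0.368 and 0.357). *Sox6* came closest to *Plekha5*, *4933406J08Rik* and *Inpp5d* (0.367, 0.350 and 0.333), and *Satb1* to *Dync1i2*, *Fbl* and *Ube2k* (0.378, 0.327 and 0.302). The gene nearest to *Dlx1* was *Dlx1as*, at 0.991, the overlapping partner described above, followed by *Prkag1* and *Lrrc4* (0.338 and 0.325). *Dlx2* was nearest to *Azin1*, *Ufd1l* and *Grap2* (0.378, 0.369 and 0.364) and *Dlx5*, defined in 4 batches, to *Cngb3*, *Gemin8* and *Adam17* (0.273, 0.267 and 0.260).

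Other transcription factors of the ventral telencephalon were examined as a list of 24 genes, of which 24 are in the table. In it, 9 genes had 0 UMI, among them *Gsx1*, *Gsx2*, *Lhx8*, *Isl1*, *Gbx2*, *Otx2*, *Olig2* and *Sox13*. *Gsx1* and *Gsx2* act in progenitors, and *Lhx8* and *Isl1* are best known from cholinergic lineages of the ventral forebrain. Of the 8 members 0 were without UMI, and of all 23335 gene names 6804 were, and the difference was not tested. Over the list, the median gene was found in 33.5 cells, against 88.5 cells for the members and 17 for all gene names. Of the 11 list genes in the test, 0 were called, and their median log2 fold change was -0.13.

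Of this list, *Zeb2*, *Nkx6-2*, *Sox5*, *Maf*, *Npas3*, *Sp9* and *Etv1* had a UMI in more than 50% of the cells of at least 1 cell type. *Zeb2*, which directs interneurons of the medial eminence to the cortex and represses *Nkx2-1*, was at 134, 295, 653 and 662 CPM in ChC and 163, 427, 363 and 182 CPM in Pv batches. *Nkx6-2*, a homeobox gene of the dorsal medial eminence, was found in 54 ChC and 61 Pv cells, and *Sox5*, a relative of *Sox6*, in 52 and 53.

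*Maf*, a factor that acts in interneurons of the medial eminence, was found in 47 ChC and 24 Pv cells, and its batches overlapped between the cell types. *Sp9*, a zinc finger gene of the ventral telencephalon, was found in 43 ChC and 12 Pv cells. Both shares were below the widest spread marker, *Slc1a3* in 45 ChC and *Nr2f1* in 41 Pv cells, and so not above background. *Sp9* was at 109, 53.9, 24.4 and 40.96 CPM in ChC and 10.2, 0, 0 and 16.3 CPM in Pv batches, which did not overlap. It was the single gene of the list with ChC batches apart above Pv, beside the 2.21% of all genes tested. *Etv1* was found in 16 ChC and 45 Pv cells and *Npas3* in 36 and 50, with overlapping batches. The ChC shares of *Etv1* and *Npas3* and the Pv share of *Maf* were not above background either.

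Among the 6 receptors and effectors of migration and maturation on a list, *Erbb4* and *Mef2c* were found in more than 50% of the cells. *Erbb4*, the neuregulin receptor of these interneurons, was at 3901, 5645, 4174 and 4190.3 CPM in ChC and at 1269, 1755, 2167 and 2111 CPM in Pv batches, so that every ChC batch was above every Pv batch. Over all 9681 genes tested, 2.21% had every ChC batch above every Pv batch. *Erbb4* was in 63 of 63 cells of each type. *Mef2c*, a factor of maturing Pv cells, was found in 62 ChC and 63 Pv cells and lay between 661 and 1518 CPM in all 8 batches. Neither passed the test, in which 0 of the 2 tested genes of the list were called. The result for *Erbb4* depended on the setting, since edgeR called it without the filter on low counts (log2 fold change 1.39), against 1.37 and no call with it. It was called without animal 4 too (1.48), a fit with a single Pv animal, whose spread comes from the ChC animals alone.

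Relatives of the members in their own gene families were counted as well. Of 8 *Lhx* gene names, 4 had any UMI and 1, *Lhx6*, was found in more than 50% of cells. Of 14 *Nkx* names, 4 had UMI, and *Nkx2-1* and *Nkx6-2* were the 2 found in more than 50% of cells.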

How the data were processed

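The authors mapped reads with Bowtie 0.12.7 to mm9 and deposited the count of distinct tags per transcript and cell, which was used here as deposited. Where a gene name had more than 1 row, the row with the most UMI was taken, because the rows of such a name largely repeat the same tags. UMI were summed over the cells of a batch or animal. Animals were compared with edgeR 4.0.16 (filterByExpr, TMM, quasi-likelihood test, Benjamini-Hochberg adjustment, threshold 0.05) and with DESeq2 1.42.0 in R 4.3.3. Thinned shares are expected values from the hypergeometric distribution. Python 3.11.15, numpy 2.4.6, scipy 1.17.1, pandas 2.3.3 and matplotlib 3.10.9 were used. The members and the gene lists were chosen with earlier results of these data known. Named are the members, genes of the lists among those found in most cells of a cell type, and the 3 genes nearest to each member. Other list genes were named after their values were seen.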

Additional observations from a re-analysis of the deposited data

Results flagged for a closer look

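In 4 of the 16 groups of 4 batches, 1 batch lay apart from the other 3 by Dixon's ratio, a rule by which chance alone picks about 1 in 20 groups. *Satb1* in ChC batch 2 was at 111.4 CPM, with 14.2 CPM in the nearest ChC batch. *Satb1* in Pv batch 6 was at 875.0 CPM, with 212 CPM in the nearest. *Dlx5* in Pv batch 8 was at 79.03 CPM, with 2.32 CPM in the nearest. *Dlx6* in Pv batch 5 was at 2.547 CPM, which is 1 UMI, with 0 in the others. With the other 3 at 0, the ratio is 1 for any count, so nothing is drawn from this flag. All 4 batches were kept, and the cause was not tested.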

How the results depend on the processing

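With other settings the number of genes called between ChC and Pv was 153 with DESeq2, 84 of 16531 without the filter on low counts and 6 of 6283 with batches as samples. Leaving out 1 animal gave 14 to 96, in fits with a single animal on 1 side. Leaving out batch 3 of ChC, an alternative chosen after seeing the data, gave 0. In every setting 0 members were called.

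Leaving out an animal or batch 3 moved the log2 fold change of *Sox6* between -0.74 and 0.90, of *Dlx1* between -0.58 and 0.80 and of *Dlx5* between -7.70 and 2.04. The -7.70 is from the fit without animal 2, where ChC held 0 UMI of *Dlx5*, and gives no size of a difference. *Sox6* changed sign without animal 4 (-0.18) and without batch 3 (-0.74), *Dlx1* without animal 2 (-0.58) and *Dlx5* without animal 4 (2.04). Without animal 4 the median over all genes was itself 0.57. *Satb1* stayed between -5.12 and -2.18.

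Summing all transcript rows of a name raised mean CPM of *Nkx2-1* to 116.9 in ChC and 88.04 in Pv, and of *Lhx6* to 440.2 and 187.5. In the same order, mean CPM rose to 587.6 and 589.3 for *Sox6* and to 108.6 and 1148.5 for *Satb1*. Averaging CPM of single cells gave 80.22 for *Nkx2-1* in ChC. Thinned to 5000 UMI, 2 members were found in more than 50% of all cells, 2 in ChC and 2 in Pv. The cause was not tested.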

Other observations

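The comparison rests on 2 animals per cell type, each type from its own mouse line and flow cell, so that line, flow cell and cell type cannot be told apart. Age was not varied within an animal. A count of 0 does not exclude transcripts below the limit of a batch. Protein was not measured, and embryonic cells were not part of the series, so how far levels fell since development was not measured. That counts mix introns, exons and both strands of a span was read from nested genes and is not stated by the labels.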
